A study of Macaca fascicularis with 4 samples.

Results

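NR0B1 is a single gene row among the 26223 that the count tables of 4 cynomolgus monkey embryo libraries share, and it is described here across those libraries and the cells in them. The gene was chosen by its counts in these same libraries, where earlier results had shown it in early mesoderm and in the surface epithelium of the urogenital ridge, and those counts are therefore given as a description, with no test. Its row was found by its symbol and carries the identifier gene31456. The RefSeq gene table of Macaca fascicularis (assembly T2T-MFA8v1.1) lists it as protein coding on chromosome X.

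Single-cell RNA was read on the 10x droplet platform from cynomolgus monkey (Macaca fascicularis) embryos at embryonic days 24, 28, 31 and 37, with 1 library at each stage. The E24 label names more than 1 embryo, and the other labels name 1 each. At E24 the embryos had been trimmed of yolk sac, amnion, heart region and posterior growth zone; at E28 and E31 the urogenital ridge was taken with mesonephros, coelomic epithelium and some mesentery; at E37 mainly the gonadal ridge was taken, with some mesonephros, putative adrenal tissue and mesentery. No sample had a treatment or an altered genotype, and all were dissociated with trypsin and EDTA.

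The dissected tissue changed with the stage and each stage has a single library, so stage, dissection and library cannot be told apart in any comparison between libraries. Barcodes with fewer than 500 genes and barcodes called as doublets were left out. This left 10639, 4964, 6654 and 5288 cells at E24, E28, E31 and E37. Their medians were 9990, 11317, 9764 and 6670 transcript molecules (unique molecular identifiers, UMIs) per cell. Between 149 and 251 barcodes of a library (2.36% to 3.02%) also occurred in another library. Leaving them out moved the NR0B1 level of no library by more than its counting error. All intervals below are 95% intervals that cover counting error only and say nothing about the spread between embryos.

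NR0B1, also called DAX1, is an orphan nuclear receptor that lacks the usual DNA-binding domain and works mainly as a corepressor of other nuclear receptors. Its best known target is NR5A1 (SF1), the receptor that drives steroidogenic genes in the adrenal cortex and the gonad. Loss of NR0B1 in people causes congenital adrenal hypoplasia, and an extra copy disturbs testis development; in mouse embryonic stem cells the gene is also part of the pluripotency network.

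NR0B1 RNA was present in every library and was highest at E31. Its level, the pooled NR0B1 UMIs for every 1000000 UMIs (CPM), was 31.5 at E24 (30.5 to 32.5, from 3632 UMIs), 57.8 at E28 (55.9 to 59.7, 3536 UMIs), 89.1 at E31 (87.0 to 91.4, 6430 UMIs) and 38.6 at E37 (36.7 to 40.6, 1551 UMIs). No 2 of these counting intervals overlapped, so the order from high to low was E31, E28, E37 and E24. At least 1 NR0B1 UMI was found in 17.2% of cells at E24, 30% at E28, 35.4% at E31 and 17.9% at E37, or in 6616 cells in all. With every cell thinned to 2000 UMIs, which sets all cells to 1 depth, the shares were 5.06%, 9.55%, 14% and 6.16%, in the same order.

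The RNA was unevenly spread over cells. The richest cell held 17, 16, 21 and 9 NR0B1 UMIs in the 4 libraries in stage order. Cells with 5 or more UMIs numbered 124, 184, 407 and 24 and held 25.1%, 37.6%, 46.8% and 9.41% of all NR0B1 UMIs. NR0B1-rich cells thus carried a large part of the signal at E28 and E31 and were rare at E37. Among the cells with NR0B1, 56.3%, 50.2%, 45.1% and 64.3% held a single UMI.

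**Figure D1:**
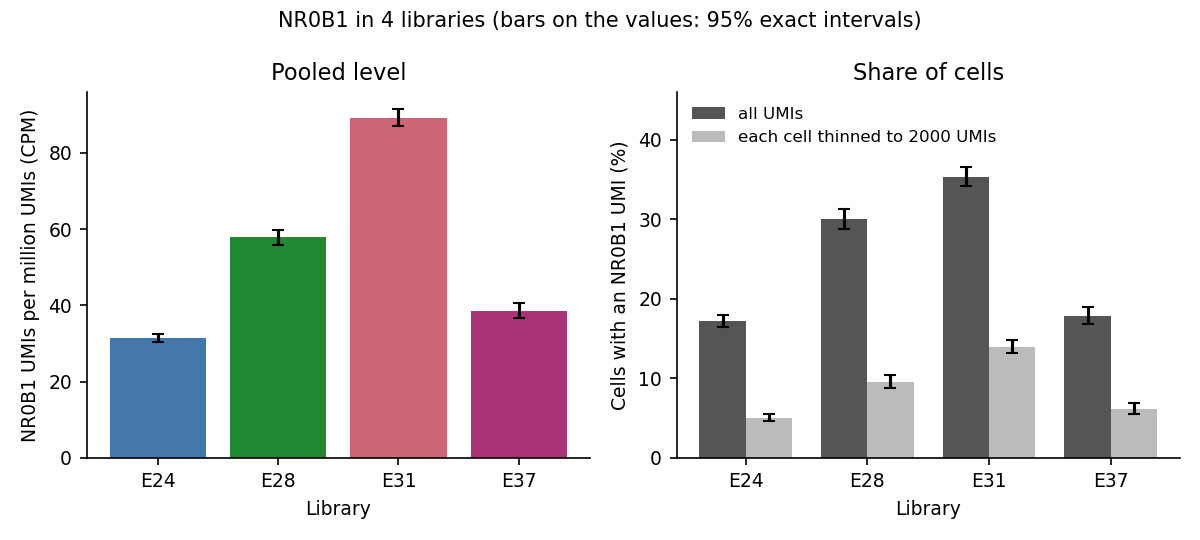
NR0B1 level (left, CPM with 95% Poisson intervals) and share of cells with at least 1 NR0B1 UMI (right, percent with 95% exact binomial intervals, as deposited and after thinning each cell to 2000 UMIs) in the 4 libraries. The level runs from 31.5 at E24 to 89.1 at E31 and is 38.6 at E37, and the shares follow the same order with and without thinning.

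Free RNA in droplets can place a UMI in a cell that does not make the transcript, and cell types that should lack NR0B1 show how large that is. Erythroid-like cells, recognised by their globin and heme genes, held 3.35, 4.22, 2.31 and 0.62 CPM in the 4 libraries in stage order, and 5.45%, 8.33%, 6.25% and 0.90% of them had a UMI. Their median depth at E24 was 23119 UMIs, against 9990 over all cells, so their share is not low for lack of depth. Endothelium-like cells held 6.0, 2.88, 6.91 and 3.05 CPM in stage order and macrophage-like cells 6.02, 4.67, 9.33 and 1.20 CPM. Levels up to 9.33 CPM, the highest of these, are read here as background.

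Cells were clustered within each library without NR0B1, the 4 genes of the barcode groups below or the genes of the described lists, and a cluster was called X-like only where markers listed for X stood out in it. At E24 the clusters highest in NR0B1 were mesodermal, and which mesoderm class came first depended on the clustering. At the resolution used throughout, the highest, cluster 2, was splanchnic-mesenchyme-like: its 945 cells were led by HLX, HAND1, FOXF1 and NR0B1 itself, held 117 CPM (110 to 124) and contributed 31.2% of the library's NR0B1 UMIs. A small second splanchnic-mesenchyme-like cluster led by PITX1 held 90.2 CPM (70.8 to 113), and the limb- or body-wall-mesenchyme-like cluster 1, led by DCN, PRRX1 and TBX5, held 87.3 CPM (81.6 to 93.4) with NR0B1 in 52.8% of its 880 cells. The intervals of these last clusters overlap each other, and that of the PITX1 cluster also overlaps that of cluster 2.

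At this resolution the other named mesoderm clusters held less. Splanchnic-mesenchyme-like clusters 3 and 9 held 48.1 CPM (42.9 to 53.7) and 28.7 CPM (24.9 to 32.9). The intermediate-mesoderm-like cluster 10, led by LHX1, PAX8 and WT1, held 33.5 CPM (28.3 to 39.4) and the sclerotome-like cluster 12, led by PAX1 and FOXC2, held 33.5 CPM (29.9 to 37.3), so these could not be placed in an order. Paraxial precursors lay at background: the presomitic-like clusters held 2.28 and 4.58 CPM and the somite-like cluster led by RIPPLY1 held 1.60 CPM. Neural-tube-like clusters (3.36 and 5.46 CPM), neural-crest-like cells (5.27 CPM) and gut-endoderm-like cells (5.65 and 1.17 CPM) were at background too. In the 49 notochord-like cells no NR0B1 UMI was counted, which allows a level of up to 7.08 CPM.

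At E28 and E31 a single kind of cluster held most of the transcript. At each stage 3 clusters were led by DLK1, a membrane ligand of the Delta-like family that marks fetal progenitors, together with TNC, the matrix protein tenascin C. At E28 these clusters held 874 cells, or 17.6% of the library, and 54.0% of its NR0B1 UMIs, at 169 CPM against 32.6 CPM in the other cells. At E31 they held 1232 cells, or 18.5%, and 59.8% of the UMIs, at 283 CPM against 44.1 CPM. These clusters therefore carried more NR0B1 RNA than all other cells together at both stages.

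Within that group the peak lay in 1 cluster at each stage. Cluster 11 at E28, with 207 cells, held 317 CPM (295 to 340) and 88.4% of its cells had a UMI. Cluster 3 at E31, with 410 cells, held 435 CPM (414 to 456), the highest value of any cluster, and 88.3% of its cells had a UMI. Both were led by DLK1, TNC, COL3A1, EDN3 (endothelin 3) and DES (desmin). Neither was given a cell type name: the closest class was adrenocortical, with 4 of 11 markers high in each, which was below the requirement.

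The other DLK1 and TNC clusters were coelomic-epithelium-like or close to it. The coelomic epithelium is the mesodermal lining of the body cavity from which gonadal and adrenal somatic cells arise. At E28 coelomic-epithelium-like clusters 4 and 6 held 138 and 117 CPM. At E31 coelomic-epithelium-like cluster 4 held 223 CPM (208 to 238) and the unnamed cluster 2, led by COL3A1, DLK1, TNC and ALDH1A2, held 222 CPM (210 to 234), with no difference beyond counting error.

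Keratins separated these surface-like clusters from the peak clusters. KRT8 stood at 472 and 614 CPM in the E28 coelomic-epithelium-like clusters and at 679 CPM in that of E31, but at 55.7 CPM in E28 cluster 11 and 182 CPM in E31 cluster 3. KRT19 showed the same order, with 113 and 114 CPM at E28 and 166 CPM at E31 in the coelomic-epithelium-like clusters and 21.5 and 53.0 CPM in the peak clusters. EPCAM, an adhesion molecule of tubular and gut epithelia, was low in both kinds of cluster: it stood at 6.98, 5.44 and 4.40 CPM in the coelomic-epithelium-like clusters and at 3.66 and 5.40 CPM in the peak clusters, against 159 CPM in the nephric-epithelium-like clusters of both stages. The coelomic-epithelium-like clusters thus had keratins and little EPCAM, and they held less NR0B1 than the peak clusters, whose keratin levels were lower. The peak clusters were not devoid of keratin: KRT19 equalled the median cluster at E28 (21.5 CPM) and lay above it at E31 (53.0 against 15.1 CPM). NR0B1 was also above background in EPCAM-rich clusters, such as the unnamed E28 cluster 3, with EPCAM at 547 CPM and NR0B1 at 37.5 CPM.

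At E37 the highest cluster was adrenocortical-like by its markers. Cluster 12 was led by PLA2G1B, CHGA (chromogranin A, also a gene of chromaffin cells), OSR2, APOA1 and NRK. It had 281 cells, 5 of 11 adrenocortical markers high, and 115 CPM of NR0B1 (103 to 127), with a UMI in 63.3% of cells and 23.5% of the library's UMIs. Its steroidogenic genes were STAR, which carries cholesterol into mitochondria, FDXR and POR, which pass electrons to steroidogenic enzymes, and INHA, the inhibin alpha subunit: these 4 of 9 measured steroidogenesis genes stood at least 2-fold above the median cluster, as did 2.76% of all 11109 genes measured there, while 4.32% stood 2-fold or more below it. STAR, FDXR and INHA are also among the listed adrenocortical markers by which the cluster was named. Their place in this count is therefore not independent of the name. In cluster 12 STAR was at 88.2 CPM and OSR2 at 171 CPM. The unnamed cluster 21, led by CHGA and OSR2 and by the proliferation gene TOP2A, held 81.4 CPM (65.4 to 100).

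Clusters of E37 led by genes of the gonadal ridge held less. LHX9 and EMX2, transcription factors of the gonadal ridge, led cluster 14, in which NR0B1 stood at 51.0 CPM (39.8 to 64.5). The dividing cluster 10, which shared LHX9 and KRT19 among its leading genes, held 26.1 CPM (20.9 to 32.1). Neither interval reached that of the adrenocortical-like cluster.

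**Figure D2:**
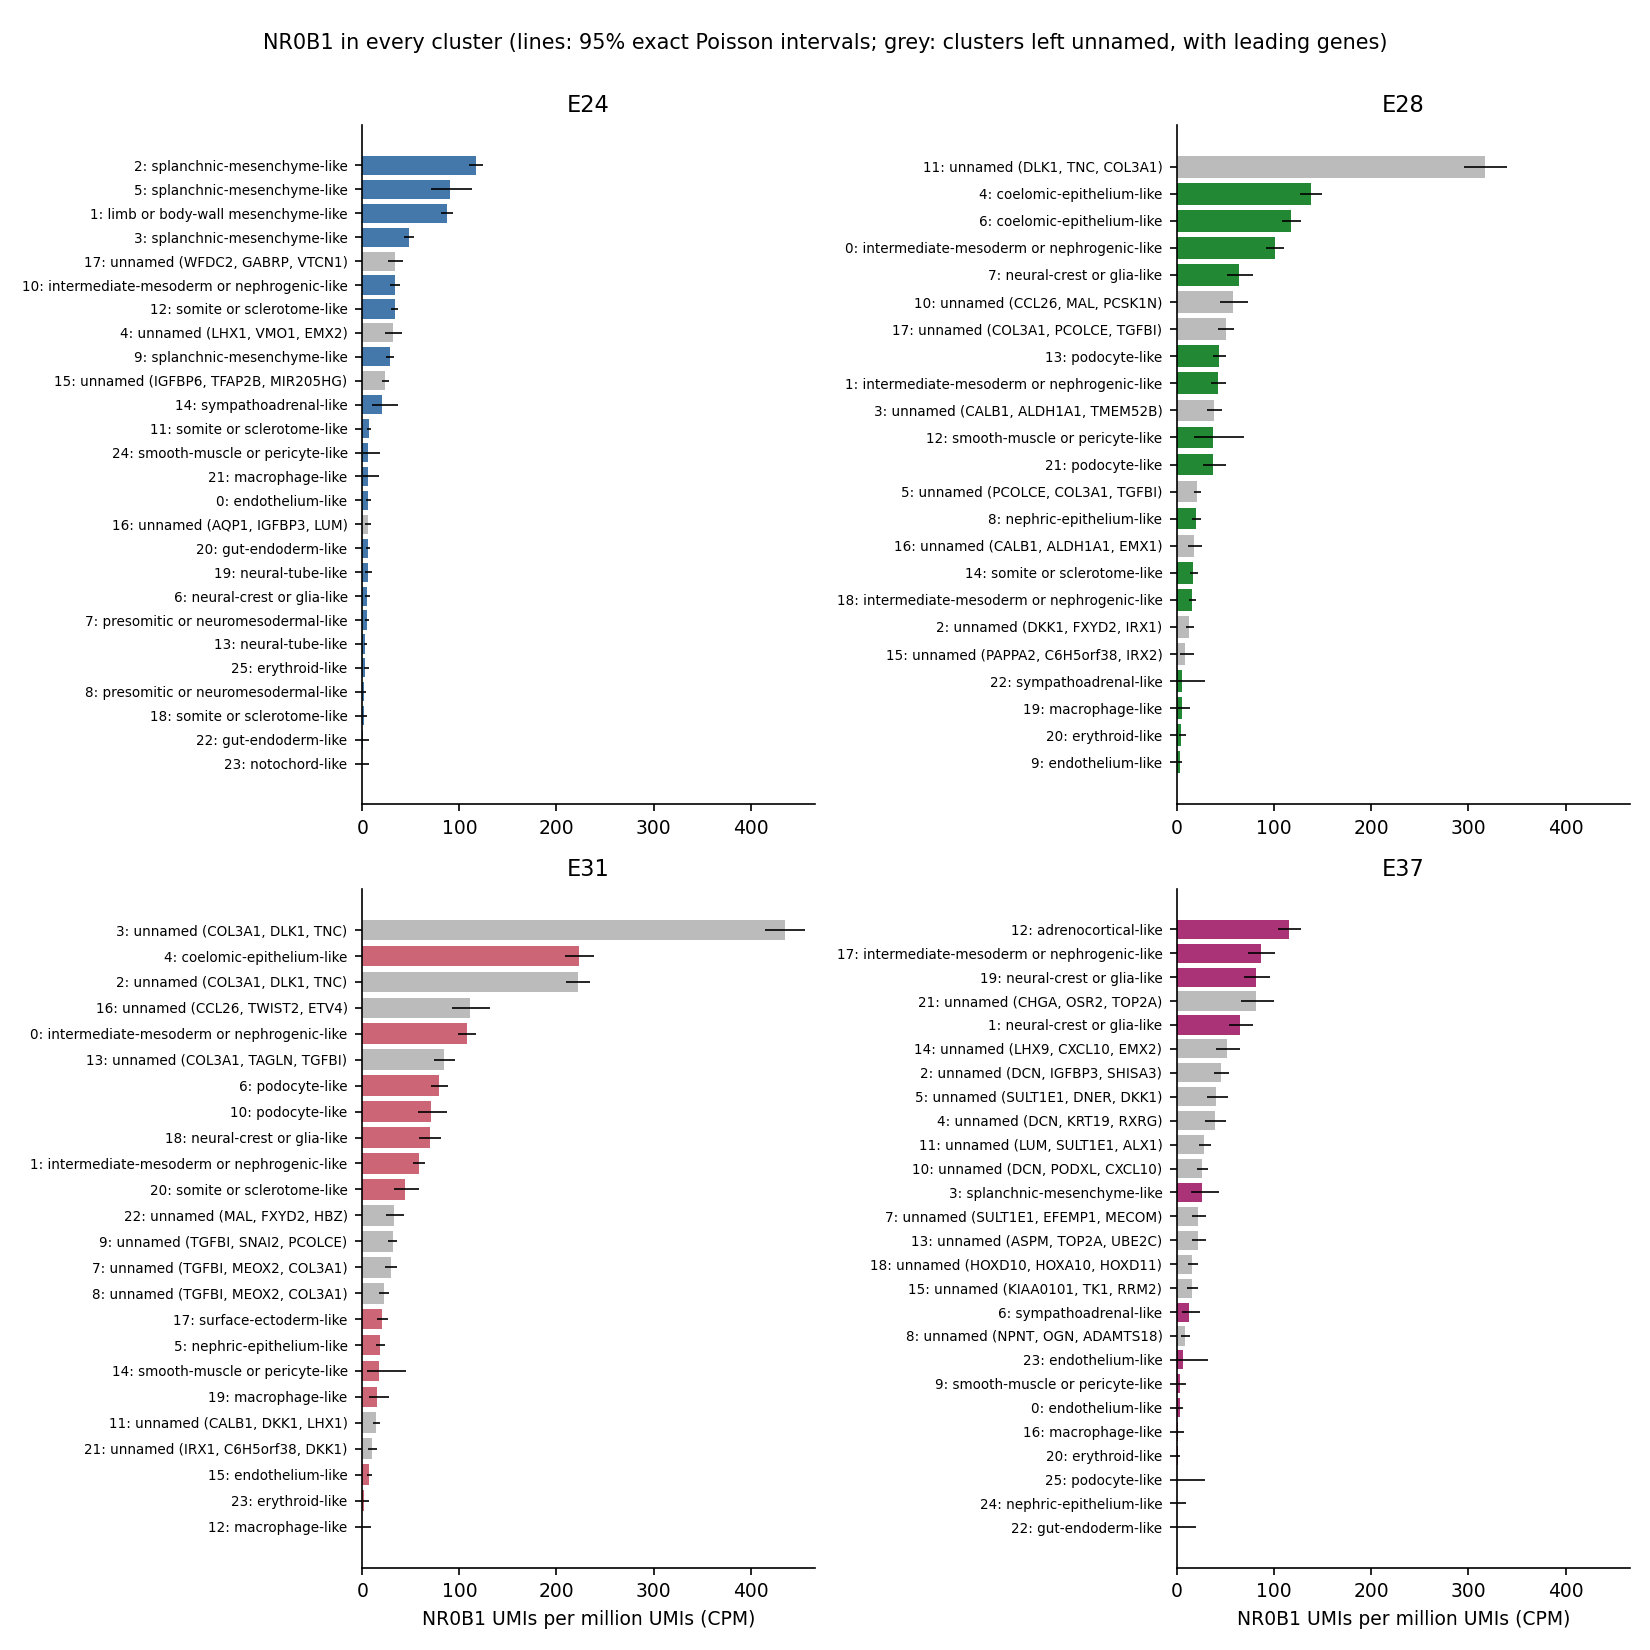
NR0B1 level in every cluster of the 4 libraries (CPM, bars with 95% Poisson intervals; grey bars are clusters with no name), ordered by level within a library. The longest bars are E31 cluster 3 (435) and E28 cluster 11 (317), against 117 for the highest cluster of E24 and 115 for that of E37.

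A further site of NR0B1 was outside the mesoderm. Neural-crest-like cells were at background at E24 (5.27 CPM), but the glia-like cells of later stages, recognised by markers such as S100B and SOX2, held 63.4 CPM at E28, 69.3 CPM at E31 and 73.3 CPM at E37. The E28 value was 12.0-fold higher (7.42 to 20.4) than that of E24, in a class where 7.59% of 6340 measured genes were at least 2-fold higher. The ratio was 32.3 with finer clustering, 9.72 with doublets removed at the expected rate and 8.08 without shared barcodes. At E24 the cells of the class were led by CRABP1, S100B, GDF10, SOX2 and WNT1. Whether they were the same kind of cell as the later glia-like cells was not tested. The later steps were small, at 1.09-fold (0.84 to 1.44) and 1.06-fold (0.86 to 1.30), and their intervals include no change. Glia-like cells were poor in the mesodermal genes of this region: at E28 they held 2.11 CPM of KRT19 and 0.70 CPM of OSR2.

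Of the other named classes above background, those with at least 50 cells at both neighbouring stages shifted less. The largest ratio among them was 2.66 (1.82 to 3.86), in somite- or sclerotome-like cells, from 16.7 CPM at E28 to 44.4 CPM at E31. In coelomic-epithelium-like cells NR0B1 went from 128 CPM at E28 to 223 CPM at E31, a ratio of 1.75 (1.60 to 1.91). In intermediate-mesoderm- or nephrogenic-like cells it went from 33.5 at E24 to 52.4 at E28, 80.4 at E31 and 85.9 CPM at E37, with ratios of 1.56 (1.30 to 1.88), 1.54 (1.39 to 1.70) and 1.07 (0.90 to 1.27). The first of these turned round with finer clustering, where it was 0.444, because cells high in NR0B1 then joined that class at E24. Podocyte-like cells of the mesonephric glomeruli went from 42.3 CPM at E28 to 77.2 CPM at E31, a ratio of 1.83 (1.54 to 2.17). Nephric tubule-like epithelium held 19.8 CPM at E28 and 18 CPM at E31, a ratio of 0.912 (0.643 to 1.29) that was 0.141 with doublets removed at the expected rate. Both classes had too few cells at E37 for a ratio. No NR0B1 UMI was counted there in 17 podocyte-like cells (up to 29.1 CPM) or in 45 nephric-epithelium-like cells (up to 9.46 CPM).

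The other genes of the cluster highest in NR0B1 changed character with the stage. In E24 cluster 2, 12 of 22 measured mesenchyme genes, 12 of 30 early mesoderm genes and 5 of 21 epithelium genes stood at least 2-fold above the median cluster, where 2.73% of all genes stood above and 0.0418% below. In it KRT8, KRT18 and KRT19 were at 1051, 743 and 846 CPM. In E37 cluster 12 the same 3 keratins were at 6.93, 0.31 and 15.7 CPM, and 8 of 23 mesenchyme genes stood at least 2-fold below the median cluster. DLK1 went the other way, from 586 CPM in E24 cluster 2 to 5281, 4622 and 4810 CPM in the highest clusters of E28, E31 and E37. Its median cluster rose as well, from 70.0 CPM at E24 to 130, 228 and 1114 CPM. At E24 and E37 DLK1 was highest in other clusters, at 2440 CPM in cluster 17 and 6508 CPM in cluster 6. The peak clusters of E28 and E31 stayed mesenchymal, with 14 of 23 and 12 of 22 mesenchyme genes and 8 of 19 and 7 of 18 early mesoderm genes at least 2-fold above the median cluster, as were 3.98% and 3.65% of all genes. They were poor in cell-cycle transcripts, with 12 and 17 of 23 S or G2/M genes at least 2-fold below the median cluster, as were 2.5% and 2.14% of all genes.

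E24 cluster 2 was mixed. Its cells held a median of 0 NR0B1 UMIs and up to 17, while the medians in the highest clusters of E28, E31 and E37 were 3, 4 and 1. Thinned counts varied 1.66 times as much as their mean in E24 cluster 2 and 1.19, 1.21 and 1.16 times in the others, where Poisson sampling alone gives a ratio near 1. With finer clustering, the highest E24 cluster had 258 cells at 295 CPM (276 to 315), close to the 317 CPM of the E28 peak, and it was intermediate-mesoderm-like with OSR2 at 51.5 CPM; the cluster with most cells of cluster 2 then stood at 40.3 CPM. With doublets removed at the expected rate it had 128 cells at 315 CPM (286 to 347) and was somite- or sclerotome-like, with FOXC2 and ALDH1A2 among its leading genes. The class of the E24 cells richest in NR0B1 was thus not settled by these clusterings.

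The same division shows inside cluster 2 when its 352 cells with NR0B1 are set against its 593 cells without. OSR2, a zinc-finger factor of intermediate and nephrogenic mesoderm, was 20.9-fold higher (10.7 to 46.7), at 34.1 against 1.63 CPM. EMX2 (10.6-fold), EYA1 (9.48-fold) and PAX8 (7.74-fold), all factors of the urogenital mesoderm, were higher too, as were ALX1, MOXD1, NTRK2 and SFRP2. HOXA10 (9.13-fold), NKX2-3 (5.60-fold) and PITX1 (5.14-fold), which mark posterior and splanchnic mesoderm, and LUM (4.33-fold) were lower. Of the 7535 genes measured in the cluster, 1.05% were at least 2-fold higher and 1.39% at least 2-fold lower in the cells with NR0B1. Of the 22 early mesoderm genes measured, 8 were higher (OSR2, PAX8, FOXC1, FOXC2, PRRX1, OSR1, LHX1 and MEOX1) and 7 were lower, among them BARX1, GATA4, HAND1, ISL1, FOXF1 and NKX3-2.

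Inside the later peak clusters few cells lacked NR0B1. In E31 cluster 3, where 362 cells had the transcript and 48 had not, 4.58% of 6356 genes were at least 2-fold higher and 0.661% lower in the cells with it. KRT18 was 2.66-fold lower (2.07 to 3.38), KRT8 2.34-fold lower and the contractile gene TAGLN 2.71-fold lower in the cells with NR0B1. In E37 cluster 12, with 178 cells against 103, 0.439% of 4329 genes were higher and 0.139% lower, and COL1A1 was 2.68-fold lower, at 46.2 against 124 CPM. E28 cluster 11 had only 24 cells without NR0B1, and there KRT8 went the other way, at 2.26 (0.943 to 7.06), within counting error of no difference.

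The 4 genes OSR2, KRT19, LHX9 and STAR are known marks of intermediate mesoderm, surface epithelium, gonadal ridge and steroidogenic cells. In these libraries they were not confined to such cells. STAR at E24 was highest in limb- or body-wall-mesenchyme-like cluster 1 (13.7 CPM), and OSR2 at E28 in the unnamed cluster 11 (265 CPM). Barcodes with at least 1 UMI of each were compared with those without, and the difference was also pooled within clusters by a Mantel-Haenszel rate ratio, a step chosen after seeing the data. For every one of the 4 genes, cells with it were deeper than cells without it (for OSR2 at E37, medians of 10799 against 6533 UMIs per cell), so levels in CPM are given first.

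OSR2 cells held more NR0B1 in every library. The level in cells with OSR2 was 112 CPM at E24, 86.8 at E28, 135 at E31 and 93.1 at E37, and in cells without it 27.7, 41.4, 67.5 and 31.6 CPM. The ratios were 4.06 (3.70 to 4.44), 2.09 (1.96 to 2.24), 2.0 (1.90 to 2.1) and 2.94 (2.63 to 3.29). At E24, where OSR2 was found in only 378 cells, most of the difference was also present within clusters: the pooled ratio was 3.24, and in cluster 2 the level was 349 CPM in 90 OSR2 cells against 85.3 CPM in the others. At E28, E31 and E37 the within-cluster ratios were 1.11, 1.10 and 1.23, so the difference there lay mainly between clusters.

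STAR cells also held more NR0B1 in every library, and the difference was small when pooled within clusters. The level with and without STAR was 53.2 and 30.5 CPM at E24, 146 and 51.9 CPM at E28, 219 and 82.0 CPM at E31, and 78.0 and 34.5 CPM at E37. The ratios were 1.75 (1.54 to 1.97), 2.82 (2.57 to 3.09), 2.68 (2.48 to 2.88) and 2.26 (1.98 to 2.57). Pooled within clusters they were 0.973, 1.04, 1.18 and 0.967. Single clusters differed: at E31 the ratio was above 1 in 4 of 4 clusters, with 1.30 (1.10 to 1.52) in cluster 2, and at E24 it was 2.90 (1.99 to 4.13) in splanchnic-mesenchyme-like cluster 9 and 0.72 (0.56 to 0.91) in cluster 2. STAR cells were few (277 to 433 per library), and NR0B1 was found in 32.1%, 61.0%, 64.0% and 39.7% of them.

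Cells with both STAR and OSR2 held more NR0B1 than cells with neither. Cells with both held 194 CPM at E28 (154 cells) and 274 CPM at E31 (150 cells). Cells with neither held 39.6 and 63.3 CPM. Other pairs were close at E31, with 243 CPM (215 to 273) for KRT19 with STAR and 238 CPM (198 to 284) for OSR2 with LHX9. At E37 cells with both held 105 CPM, while STAR cells without OSR2 held 42.0 CPM and cells with neither 31.1 CPM.

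KRT19 cells held more NR0B1 at E24, E28 and E31 and slightly less at E37. NR0B1 stood at 40.8 CPM with KRT19 against 12.6 without at E24, 72.8 against 53.0 at E28, 113 against 81.1 at E31 and 34.0 against 39.8 at E37. The ratios were 3.24 (2.94 to 3.58), 1.37 (1.28 to 1.48), 1.40 (1.32 to 1.47) and 0.853 (0.746 to 0.972). From per-cell means the E37 ratio was 0.949. The shares of cells with NR0B1 at E37 were close, at 18.1% with KRT19 and 17.9% without, or 5.32% and 6.34% after thinning. KRT19 was a broad mark at E24, where 62.9% of cells had a UMI and 86.8% of the NR0B1 UMIs lay in them, and it was also found in 54.2% to 62.7% of the erythroid-like cells of the 4 libraries. Over all cells of E28, E31 and E37 the shares with KRT19 were 20.5%, 20.5% and 17.1%, lower than in these globin-rich cells, whose median depth at E28 was 31407 UMIs.

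Within clusters the KRT19 relation was weaker at E24 and opposite at E28 and E31. The pooled within-cluster ratios were 1.46, 0.898, 0.818 and 0.896. In coelomic-epithelium-like cluster 4 at E28, cells with KRT19 held 117 CPM and cells without it 171 CPM, a ratio of 0.69 (0.58 to 0.81). In the intermediate-mesoderm-like cluster 0 at E31 the levels were 54.7 and 130 CPM, and in cluster 17 of that class at E37 they were 17.7 and 126 CPM. Other clusters went the other way, such as E31 cluster 16 at 1.67 (1.13 to 2.44) and E37 cluster 4 at 5.67 (2.28 to 18.2). Of 12, 12 and 10 clusters compared at E28, E31 and E37, the interval lay below 1 in 2, 4 and 1 and above 1 in 1, 2 and 2.

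LHX9 cells differed most between stages in number. At E24 there were 15 of them with 2 NR0B1 UMIs, too few for a comparison of levels (6.69 CPM, 0.811 to 24.2). At E28 142 LHX9 cells held 145 CPM against 54.7 CPM in the others, and 67.6% of them had NR0B1. At E31 67 LHX9 cells held 207 CPM against 87.7 CPM, and 74.6% had NR0B1. At E37 618 LHX9 cells held 51.7 CPM against 36.8 CPM, and 25.4% had NR0B1. The ratios at these 3 stages were 2.66 (2.36 to 2.99), 2.36 (2.02 to 2.73) and 1.41 (1.22 to 1.61).

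LHX9 and NR0B1 went together inside clusters most clearly at E37. There the within-cluster ratio was 2.0, above the 1.41 over all cells, and it was above 1 in 5 of 5 clusters that could be compared. In E37 cluster 10 cells with LHX9 held 42.9 CPM and cells without it 11.6 CPM, and in cluster 14 they held 58.0 and 22.4 CPM. At E28 and E31 the within-cluster ratios were 1.15 and 1.03, with 1 of the 2 clusters compared above 1 at each stage: E28 cluster 6 at 1.52 (1.24 to 1.86) and E31 cluster 4 at 1.40 (1.07 to 1.81), both coelomic-epithelium-like.

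**Figure D3:**
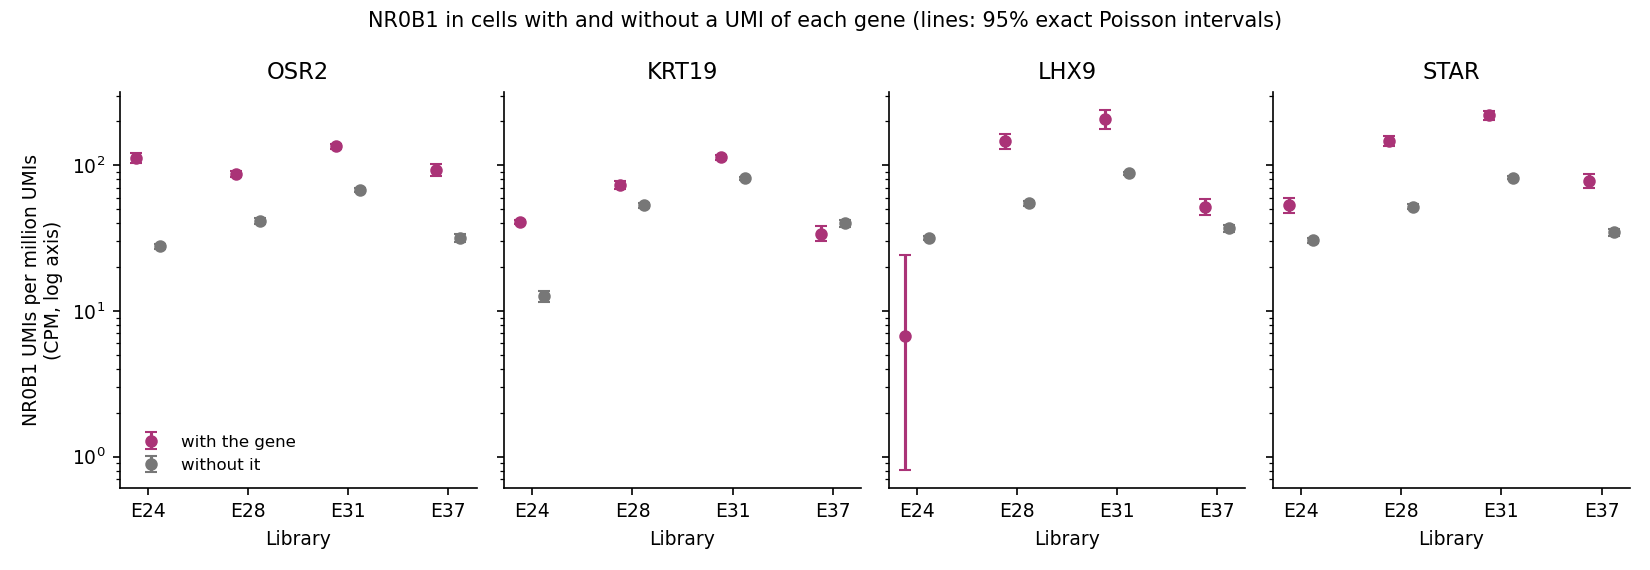
NR0B1 level (CPM on a log axis, points with 95% Poisson intervals) in cells with and without a UMI of OSR2, KRT19, LHX9 or STAR at each stage. The levels with OSR2 and STAR lie above those without at all 4 stages, while for KRT19 the order is turned at E37 (34.0 against 39.8) and for LHX9 at E24, where there are 15 cells.

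**Figure D4:**
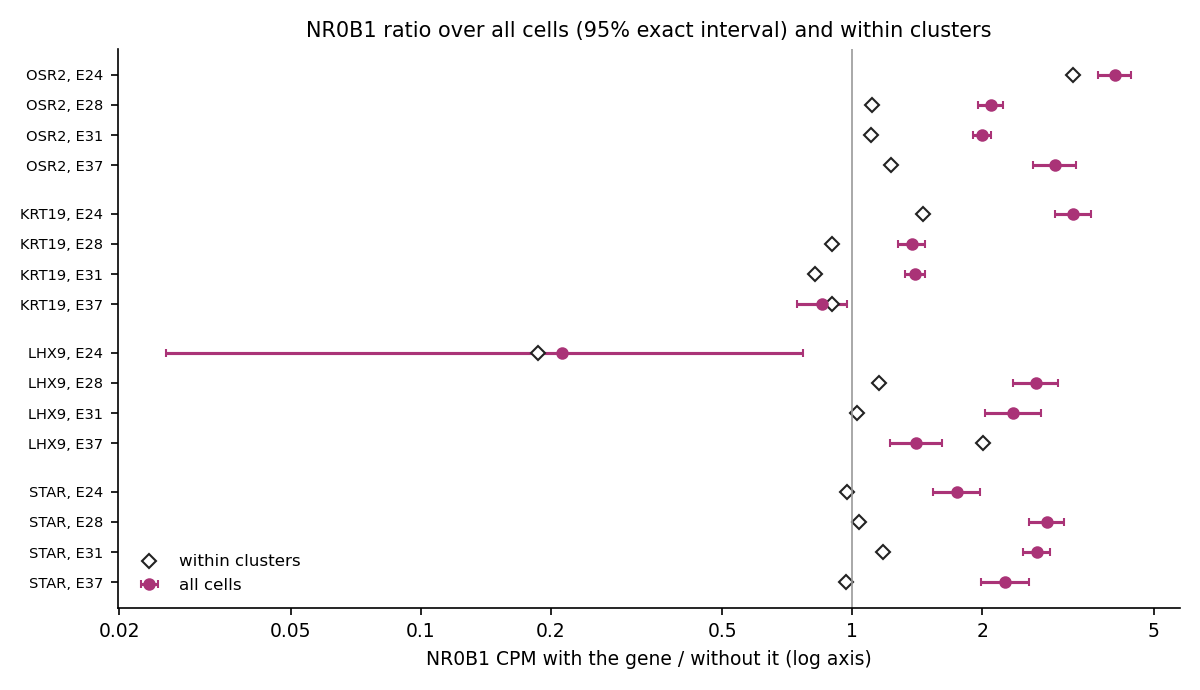
Ratio of the NR0B1 level with and without each of the 4 genes on a log axis, over all cells (with 95% intervals) and pooled within clusters (no interval), by stage. The within-cluster points for STAR lie between 0.967 and 1.18, those for OSR2 fall from 3.24 at E24 to between 1.10 and 1.23, and that for LHX9 at E37 is 2.0.

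Cells with more of the 4 genes held more NR0B1, up to 2 of them in every library and up to 3 at E28 and E31. At E28 the level was 35.5, 59.6, 123 and 156 CPM in cells with 0, 1, 2 and 3 of the genes. At E31 it was 56.0, 105, 170 and 208 CPM. At E24 it was 11.5, 34.4, 93.5 and 91.6 CPM, and at E37 30.2, 41.0, 72.7 and 60.2 CPM, without a further increase from 2 to 3 genes.

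Genes detected with NR0B1 were read from the ratio of the pooled level in all cells with NR0B1 to that in all cells without. Cells with NR0B1 were somewhat deeper in each library (medians of 11600 against 9639 UMIs at E24 and 7701.5 against 6504.5 at E37). At E24 0.507% of 12438 measured genes were at least 2-fold higher and 6.61% at least 2-fold lower. At E28 these shares were 1.05% and 3.78% of 11864 genes, at E31 1.53% and 4.73% of 11809, and at E37 0.991% and 6.44% of 11399. At every stage more genes were lower than higher in the cells with NR0B1, but the filter for measured genes bears on this count. A gene was measured only if it reached a minimum number of UMIs in either group. The group without NR0B1 was the larger in each library (8811 against 1828 cells at E24 and 4301 against 2353 at E31). A gene of low level could therefore be counted as lower more readily than as higher. How much of the excess came from this was not tested.

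At E24 the 8 highest genes were a mixed group that included mesodermal factors. MAGEB3, a neighbour of NR0B1 on chromosome X, came first at 6.68-fold (4.67 to 9.65). OSR2 was 3.59-fold higher, EBF1 3.31-fold, TBX5 (a forelimb factor) 3.04-fold and PRRX1 (a limb mesenchyme factor) 2.75-fold; RGS4, FITM1 and PRKG2 completed the list. Of 34 early mesoderm genes measured, 6 were at least 2-fold higher (OSR2, TBX5, PRRX1, HAND2, LHX1 and GATA5) and 8 lower. Those 8 included T, TBX6, MESP1 and MIXL1, the genes of the primitive streak and presomitic mesoderm, and GATA4. Of all genes, 0.507% were higher and 6.61% lower. The median log2 ratio of the list was 0.25, against -0.01 over all genes. The 4 lowest genes were FGA (39.2-fold lower), RBP4 (33.0-fold) and FGG (26.7-fold), products of endoderm, and the macrophage chemokine CCL3 (24.6-fold).

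At E28 and E31 the top of the list was shared. TECRL, an endoplasmic reticulum reductase-like protein known from heart muscle, was 9.14-fold higher at E28 (6.01 to 14.3) and 11.6-fold at E31 (6.82 to 20.9). DLK1 was 4.50-fold (1715 against 381 CPM) and 5.47-fold higher, and PLPP4 and TMEM151A were among the 8 highest at both stages. NPPB (7.12-fold), NDP and C1QL4 were also in the list at E28. At E31 it also held TNC (5.85-fold), BNC1 (6.56-fold), a zinc-finger factor of mesothelium and germ cells, and RXFP2 (7.29-fold), the receptor of INSL3.

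At E28 and E31 more early mesoderm genes were higher than lower in NR0B1 cells. At E28 6 of 23 were at least 2-fold higher and none lower (GATA6, MESP1, GATA5, TBX6, HAND2 and MSX1), and at E31 7 of 20 were higher and 1 lower, with GATA5 at 3.86-fold and HAND2 at 4.10-fold. Of all genes, 1.05% and 1.53% were higher at these stages and 3.78% and 4.73% lower. The median log2 ratio of the list was 0.61 at both stages, against -0.01 over all genes. At E37 it was -0.26, with 3 of 24 higher (MESP1, OSR2 and MSX1) and 6 lower.

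Of all measured genes, 0.507%, 1.05%, 1.53% and 0.991% were at least 2-fold higher at E24, E28, E31 and E37, and 6.61%, 3.78%, 4.73% and 6.44% lower. Of 24, 23, 23 and 17 epithelial genes measured, 1, 1, 1 and 0 were at least 2-fold higher, too few to read against these shares. Lower were 1, 0, 5 and 6, and the median log2 ratios were 0.01, -0.12, -0.11 and -0.52. KRT19 was the member that was higher at E28 and E31 (2.1-fold at each), and it stood at 1.01 at E24. There 62.9% of cells had a KRT19 UMI, but its level differed widely between clusters. It was 4017 CPM in the unnamed cluster 16, where NR0B1 was at 5.77 CPM, and 846 CPM in cluster 2, the highest in NR0B1. The claudins CLDN3, CLDN4, CLDN6 and CLDN7, which seal tight junctions, were lower at E31, and EPCAM was at 0.32 at E37. Mesenchyme genes were higher in 5 of 23 cases at E28 and at E31, led by the collagens COL1A2 and COL3A1, DCN and POSTN (3.68- and 3.27-fold), and in 1 and 0 cases at E24 and E37.

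The genes lowest in NR0B1 cells at E28 and E31 were mostly those of blood and vessels. STAB2, of sinusoidal endothelium, had 0 UMIs in NR0B1 cells at E28 (at least 40.7-fold lower), as had the eosinophil gene PRG2 (at least 11.1-fold lower). The endothelial gene ESM1 was 15.1-fold lower and the platelet gene PPBP had 1 UMI. At E31 LYZ (14.6-fold), the neuronal gene STMN2 (25.4-fold), CD36 (14.3-fold) and KLHL6 (at least 11.1-fold) were the 4 lowest.

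At E37 2 of the 8 genes highest with NR0B1, PLA2G1B and OSR2, were also leading genes of the adrenocortical-like cluster. PLA2G1B was 7.98-fold higher, MARCH11 9.66-fold, GSTA3 8.81-fold, MESP1 6.47-fold and OSR2 5.67-fold; ISM1, ACTN2 and the myelin gene MAG (5.10-fold) were the other 3. The liver genes APOA2 (80.8-fold), AFP (52.0-fold) and SERPINA1 (1 UMI in NR0B1 cells) and the platelet gene PPBP (0 UMIs, at least 50.6-fold) were lowest.

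Out of 10933 genes with at least 50 UMIs among cells with or among cells without NR0B1 in every library, only STAR and TECRL were at least 2-fold higher with it in all 4. MAGEB3 was above 2-fold in all 4 as well but had too few UMIs at E37 to be counted. STAR was 2.07-, 4.12-, 3.34- and 3.12-fold higher at E24, E28, E31 and E37. TECRL was 2.69-, 9.14-, 11.6- and 5.05-fold higher. Others passed 2-fold at some stages: TNC stood at 2.31, 3.78 and 5.85 at E24, E28 and E31 and at 0.70 at E37, and RGS4 at 3.37, 1.04, 0.50 and 0.40.

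The receptor that NR0B1 is best known to repress was nearly absent from the counts. NR5A1 had 1, 6, 5 and 7 UMIs at E24, E28, E31 and E37, in cells of which 1, 3, 4 and 5 also held NR0B1. How well NR5A1 RNA was captured and counted in these libraries was not tested, so these counts do not show that the cells lacked it. The related NR0B2 (SHP) had 0, 1, 2 and 12 UMIs. NR5A2 was more frequent, with 235, 108, 114 and 44 UMIs. Counts among the corepressors and partners through which NR0B1 works were too small to read against the 0.507% to 1.53% of all genes that were higher: of 14, 13, 14 and 13 measured genes in stage order, 0, 0, 1 (POU5F1) and 0 were at least 2-fold higher and 2, 1, 1 and 2 lower. The POU5F1 value rests on 3 cells. NCOR1, for instance, was at 84.0 against 82.5 CPM at E24.

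Of the regulators of NR5A1 and the gonadal ridge, LHX9 and GATA6 were higher with NR0B1 at E28 and E31. LHX9 was 4.33- and 5.47-fold higher and GATA6 3.78- and 4.33-fold higher at these stages; they were the 2 of 17 list members past 2-fold at each, and ZFPM2 was lower at E31. Of all genes, 1.05% and 1.53% were higher at these stages. The median log2 ratio of the list was 0.03 and 0.09. At E24 none of 18 was higher and GATA4 and LHX2 were lower, and at E37 none of 19 was higher. WT1, which activates NR0B1 and NR5A1, stayed under 2-fold throughout, at 1.79, 1.05, 1.33 and 0.73.

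Steroidogenic genes were represented by STAR and INHA. INHA was 2.29-, 2.17- and 2.72-fold higher at E28, E31 and E37 and at 0.79 at E24. Of 12 steroidogenesis genes measured at each stage, 1, 2, 2 and 2 were at least 2-fold higher and none lower. Over all genes 0.507%, 1.05%, 1.53% and 0.991% were higher and 6.61%, 3.78%, 4.73% and 6.44% lower. The enzymes CYP11A1, CYP17A1 and HSD3B2 were not analysed here.

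Counts of signalling genes past 2-fold were small. Over all genes 0.507% to 1.53% were higher and 3.78% to 6.61% lower, depending on the library. WNT2B was 2.49-, 3.48- and 5.08-fold higher with NR0B1 at E24, E28 and E31 and at 0.95 at E37, among 31, 27, 26 and 23 WNT genes of which 2, 1, 1 and 0 were higher and 3, 2, 4 and 5 lower. ALDH1A2, which makes retinoic acid, was at 2.06, 1.85, 2.44 and 1.64, and 1, 1, 1 and 0 genes of the retinoic acid list were higher. Of the BMP and TGF-beta genes 7 of 23 were lower at E24, with a median log2 ratio of -0.46. GLI1, a target of hedgehog signalling, was 2.39-fold higher at E28. None of the S and G2/M genes passed 2-fold in either direction at any stage. Of 16 dissociation-stress genes none was higher, and 1, 0, 2 and 1 were lower in stage order.

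Over 84 clusters of 50 or more cells, NR0B1 was most like STAR among the genes that reached at least 20 CPM in a cluster. The measure was Pearson's r of log2(CPM + 5) after the mean of each library was subtracted; the clusters of 1 library share depth and ambient RNA. STAR had r = 0.664, followed by DLK1 (0.644), FXYD1 (0.629), PJA1 (0.618), MOSPD1 (0.618), MFGE8 (0.617), CYTH2 (0.594) and SAMD11 (0.590). OSR2 stood at 0.502, KRT19 at 0.316 and LHX9 at 0.270. Of 10173 genes ranked, 64 (0.629%) reached 0.5. Among the lowest values were those of MSN (-0.614), RAP1A (-0.611) and DERL1 (-0.601).

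On chromosome X, a neighbour shared the pattern. In the order of the RefSeq table, NR0B1 is preceded by MAGEB2, MAGEB3, MAGEB4 and MAGEB1, cancer-testis antigens of the MAGE family, and followed by TASL, GK and TAB3. MAGEB3 had 136, 70, 92 and 28 UMIs at E24, E28, E31 and E37. Of the cells with MAGEB3, 62.1%, 73.4%, 73.0% and 39.3% also held NR0B1, against 17.2%, 30%, 35.4% and 17.9% of all cells. Its level with NR0B1 was 6.68-fold (4.67 to 9.65), 6.16-fold (3.54 to 11.2), 4.51-fold (2.81 to 7.45) and 2.41-fold (1.02 to 5.45) higher.

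MAGEB2 had 16, 17, 14 and 1 UMIs, with ratios of 6.68 (2.20 to 22.4), 5.12 (1.68 to 18.5) and 6.17 (1.63 to 34.4) at the first 3 stages. The genes on the other side were close to 1: GK (glycerol kinase) stood at 1.01, 0.860, 0.834 and 1.01 and TAB3, a TAK1 adaptor, at 1.08, 0.935, 0.991 and 0.834. Over the 84 clusters r was 0.678 for MAGEB3, which lay below the level required for the ranking above, 0.445 for MAGEB2, -0.197 for GK and -0.112 for TAB3. MAGEB1 and MAGEB4 had at most 4 UMIs in a library, and TASL was not analysed here. The labels do not say whether counting used strand, and reads shared between neighbouring gene models were not tested. These neighbours were looked at after the ratio of MAGEB3 at E24 was seen.

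**Figure D5:**
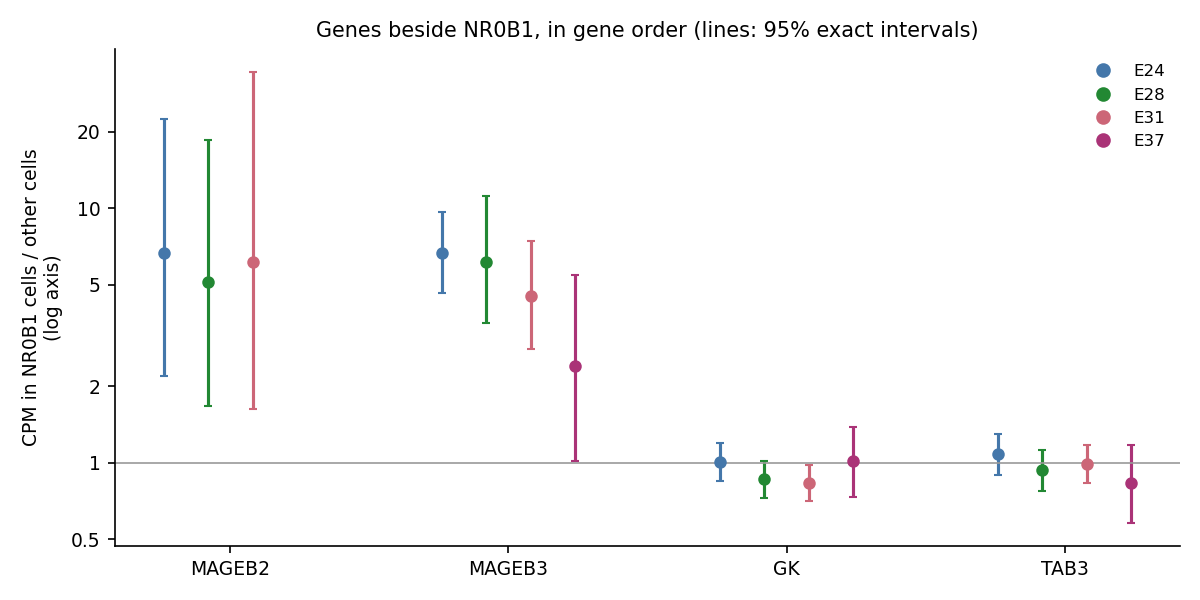
Ratio of the level in cells with NR0B1 to cells without for genes beside NR0B1 on chromosome X, at each stage (log axis, 95% exact intervals; MAGEB2 at E37, with 1 UMI, is not drawn). The MAGEB3 ratios lie between 2.41 and 6.68, while those of GK and TAB3 lie between 0.834 and 1.08.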

How the data were processed

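The deposited files are UMI counts per gene and barcode, made by the authors with Cell Ranger 2.1.0 per the submitters' processing notes; no source used here gives the genome build or whether counting used strand, and the labels name both v2 and v3 chemistry. Barcodes with fewer than 500 genes were left out. Doublets were scored with Scrublet in scanpy 1.11.5 (Python 3.11.15). The 0, 64, 7 and 5 barcodes that the caller marked in stage order were left out as well. The caller had not worked at E24, E31 and E37, and removal at the expected rate was an alternative. Each library was clustered alone (2000 variable genes without NR0B1, the 4 barcode genes and all list genes, 30 components, 15 neighbours, Leiden resolution 1) and clusters were named from listed markers.

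Levels are pooled counts per 1000000 UMIs (CPM) with exact Poisson intervals, shares have exact binomial (Clopper-Pearson) intervals, and ratios have exact conditional intervals, all at 95%. With 1 library per stage no test was possible, and no p-value is given. Genes with 0 UMIs in a group were bounded at 3 UMIs. Named genes were NR0B1, the 4 barcode genes, members of the lists, the 8 highest and 4 lowest ratios in each library by their interval bounds among genes with 50 UMIs, and the 8 genes most like NR0B1 over clusters; the chromosome neighbours and the cells with POU5F1 and NANOG were added after their values were seen. NR0B1, the lists and the comparisons were chosen with earlier results of these data known. Alternatives covered depth, 2 UMIs as the detection minimum, per-cell means, doublets, shared barcodes, cell filters and clustering. The ratio within clusters was added after seeing the data. Ratio intervals were checked on simulated data. Some genes that these rules name are not reported here.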

Additional observations from a re-analysis of the deposited data

Results flagged for a closer look

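The relation of NR0B1 with 2 of the 4 barcode genes went in opposite directions at different stages, which is what singled them out; these differences between stages were not tested, since each stage is 1 library. The ratio of the NR0B1 level in cells with KRT19 to that in cells without was 3.24 at E24, 1.37 at E28 and 1.40 at E31, but 0.853 at E37. From per-cell means the E37 ratio was 0.949. For LHX9 the ratio was 0.212 at E24, from 2 NR0B1 UMIs in 15 cells, and 2.66, 2.36 and 1.41 at E28, E31 and E37.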

How the results depend on the processing

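Of 200 alternative values over 47 results, 149 stayed within the spread set for them, 46 moved further and 5 turned round. No paired analysis was possible because each stage has 1 library. After thinning to 2000 UMIs the share of cells with NR0B1 was 5.06%, 9.55%, 14% and 6.16% at E24, E28, E31 and E37, and with a minimum of 2 UMIs it was 7.5%, 14.9%, 19.4% and 6.39%. The mean of per-cell levels was 94.7 CPM at E31. With 2 UMIs required of the barcode gene, the ratios were 5.36 (OSR2) and 2.41 (STAR) at E24, 2.25 (OSR2), 1.56 (KRT19) and 4.48 (STAR) at E28, 1.82 (OSR2), 1.50 (KRT19) and 3.15 (STAR) at E31, and 2.77 (STAR) at E37; LHX9 at E24 had too few cells. From per-cell means the E37 ratios were 2.61 (OSR2) and 1.97 (STAR). Pooled within clusters, the ratios that moved were 3.24 (OSR2) and 1.46 (KRT19) at E24, 1.11 (OSR2), 1.15 (LHX9) and 1.04 (STAR) at E28, 1.10 (OSR2), 1.03 (LHX9) and 1.18 (STAR) at E31, and 1.23 (OSR2) and 2.0 (LHX9) at E37, and those that turned round were 0.973 (STAR, E24), 0.898 (KRT19, E28), 0.818 (KRT19, E31) and 0.967 (STAR, E37). Removing doublets at the expected rate gave 3.70 for KRT19 at E24, 90.4 CPM for E24 cluster 2, and stage ratios of 2.1 for coelomic-epithelium-like, 0.141 for nephric-epithelium-like and 0.125 for endothelium-like cells (E37 to E31). Leiden resolution 2 gave 40.3 CPM for E24 cluster 2 and stage ratios of 32.3 for glia-like, 1.92 for coelomic-epithelium-like and 0.444, turned round, for intermediate-mesoderm-like cells at E28 to E24. With NR0B1 itself and the list genes put back among the clustering genes, E24 cluster 2 stood at 40.1 CPM, and without shared barcodes E31 cluster 3 stood at 461 CPM. Genes at least 2-fold higher with NR0B1 numbered 117, 204 and 196 at E24, E28 and E37 with 2 NR0B1 UMIs required, and 29, 66 and 45 at E28, E31 and E37 from thinned shares of cells, against 63, 124, 181 and 113 in stage order. The cause of these shifts was not tested. Depth limits what is said of LHX9 at E24 and of genes with few UMIs, and embryo-to-embryo spread is unknown.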

Other observations

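NR0B1 belongs to the pluripotency network of mouse embryonic stem cells, and POU5F1 and NANOG appeared 6.14-fold and 5.58-fold higher with NR0B1 at E31. These values rest on 3 cells. Cells with at least 2 POU5F1 UMIs and 1 NANOG UMI, a combination known from primordial germ cells, numbered 11, 4, 5 and 4 at E24, E28, E31 and E37, and held 203 of 280, 298 of 321, 159 of 186 and 221 of 227 POU5F1 UMIs. Of these 24 cells, 21 had no NR0B1 UMI, and 3 at E31 had 1 UMI each, which is 20.8 CPM (4.29 to 60.7) at a median depth of 38156 UMIs. Without them the POU5F1 ratio at E31 was 1.82 (0.793 to 4.20). These cells were picked after the values were seen, and the E31 library as a whole stood at 89.1 CPM.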
